A study of Mus musculus with 33 samples.

Results

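Spi1, Cebpb, Csf1r, Adgre1 and Cd68, the 5 genes described here, were chosen as regulators of the myeloid lineage and genes of macrophage identity. They are 5 of the 57 panel genes that were measured in all 33 nCounter libraries of donor monocytes, while the panel listed 67 genes in all. nCounter reads each transcript as a barcoded probe. The libraries came from monocytes of C57BL/6 WT donors that had been transferred into C57BL/6 CCR2-/- recipients, so that every recipient, non-manipulated ones included, lacked CCR2. Manipulated recipients had surgery of the small intestine 1 day before the transfer, under ketamine and xylazine and with Novalgin, per the methods of the study. Non-manipulated recipients had no procedure, and surgery, anaesthesia, drug and inflammation cannot be told apart here. On day 1 after transfer, 100 donor cells per library were sorted through a gate on CD11b, CD11c and CD64. The groups of manipulated recipients were small intestine (5 libraries), liver (2), spleen (3) and bone marrow (BM, 3). Another 4 libraries came from the small intestine of non-manipulated recipients given monocytes of manipulated donors. Non-manipulated recipients given monocytes of non-manipulated donors made up the groups of small intestine (4 libraries), liver (3), spleen (3) and BM (3). Monocytes before transfer, called primary monocytes, gave 1 library from a manipulated donor and 2 from non-manipulated donors. The ages of the mice are not given in the sources used here, and libraries are numbered by the mouse number of the labels.

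Monocytes are made in the bone marrow under the control of a small set of transcription factors and become macrophages after they enter tissues. Spi1 encodes PU.1, the ETS family factor that sets up the myeloid lineage and binds at most macrophage enhancers. Cebpb encodes C/EBP-beta, a leucine zipper factor that is induced by inflammatory signals and is needed for the survival of some monocytes. Csf1r encodes the receptor of the growth factors CSF1 and IL-34, on which monocytes and macrophages depend, and is itself a target of PU.1. Adgre1 encodes EMR1, an adhesion G protein-coupled receptor that has long served as a surface marker of mouse macrophages, and Cd68 encodes a heavily glycosylated protein of late endosomes and lysosomes.

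The probes bound NM_011355.1 at positions 172 to 271 (Spi1), NM_009883.3 at 1148 to 1247 (Cebpb), NM_001037859.2 at 1893 to 1992 (Csf1r), NM_010130.1 at 996 to 1095 (Adgre1, named Emr1 in the files) and NM_009853.1 at 637 to 736 (Cd68). Each probe covers a stretch of 1 transcript, so levels of different genes were not compared with each other. The 250 bases before the start sites of Cebpb and Cd68, taken from RefSeq (GRCm38.p6), are shown. The stretches of Spi1, Csf1r and Adgre1 were not available here. Capitals mark the letters that matched GAGGAA (the core of PU.1 sites), TTNNGNAA (C/EBP sites) or TGACG (the core of cAMP response elements) on either strand, where N is any base.
Cebpb, chr2:167688665-167688914, + strand: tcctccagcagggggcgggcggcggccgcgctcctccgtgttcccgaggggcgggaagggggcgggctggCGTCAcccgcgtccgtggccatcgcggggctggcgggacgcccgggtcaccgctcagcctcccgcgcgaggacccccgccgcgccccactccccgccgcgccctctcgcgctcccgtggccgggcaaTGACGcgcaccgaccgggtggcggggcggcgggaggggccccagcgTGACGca
Cd68, chr11:69666171-69666420, - strand: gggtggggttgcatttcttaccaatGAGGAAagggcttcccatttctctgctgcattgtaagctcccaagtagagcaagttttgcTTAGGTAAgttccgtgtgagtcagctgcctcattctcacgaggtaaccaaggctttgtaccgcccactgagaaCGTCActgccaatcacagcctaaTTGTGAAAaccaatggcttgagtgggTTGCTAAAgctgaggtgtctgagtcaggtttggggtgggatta
The Cebpb stretch held 3 matches to TGACG and none to the other patterns. The Cd68 stretch held 1 match to GAGGAA, 3 to TTNNGNAA and 1 to TGACG, and no matches overlapped. Among 32851 stretches of this length, 23.3% held GAGGAA, 36.8% held TTNNGNAA and 17.8% held TGACG, so such matches are common. They describe letters only, and binding was not measured.

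Total counts ranged between 653842 and 1626398 per library, and the background of the negative control probes between 16.7 and 65.2 counts. All 5 genes lay above background in all 33 libraries, with 99 counts as their lowest value. Counts follow pre-amplification and are not independent molecules, so the spread between libraries sets the precision. Levels are log2 values of counts scaled by the house-keeping genes Actb, Gapdh and Rpl19, plus a pseudocount of 1. Differences between groups were tested with limma over all libraries with Benjamini-Hochberg adjustment over the 57 genes within each comparison, and a gene was called at an adjusted p under 0.05. In bulk samples, fewer cells of a type and less RNA per cell cannot be told apart. Of marker lists, 6 of 8 genes of Ly6C-high monocytes, 8 of 10 of macrophages (3 of them among the 5 genes) and 1 of 5 of dendritic cells (Ccr7) were measured. The 6 monocyte genes were above background in all libraries, and the log2 of their summed level lay between 17.34 and 18.83. Markers of neutrophils (0 of 6), lymphocytes (0 of 6) and epithelial and stromal cells (0 of 5) were not on the panel. These lists therefore do not check the gate, and the part of such cells in any result was not tested.

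The 5 genes differed in how much they varied over the 33 libraries. Spi1 lay between 15.51 and 17.11 (median 16.34), a 3.02-fold range. Its SD of 0.35 was the second lowest of the 57 genes, and its rank remained between 1 and 4 under the 9 scalings examined (SD 0.26 to 0.54). The other genes spread more widely. Cebpb lay between 10.74 and 14.39 (median 13.33, SD 0.83), and Csf1r between 12.26 and 15.96 (median 14.59, SD 0.81). Cd68 lay between 10.87 and 14.80 (median 13.31, SD 0.87). Adgre1 had the widest range of the 5, between 7.11 and 12.36 (median 10.2, SD 1.10), which is 38.1-fold.

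**Figure D1:**
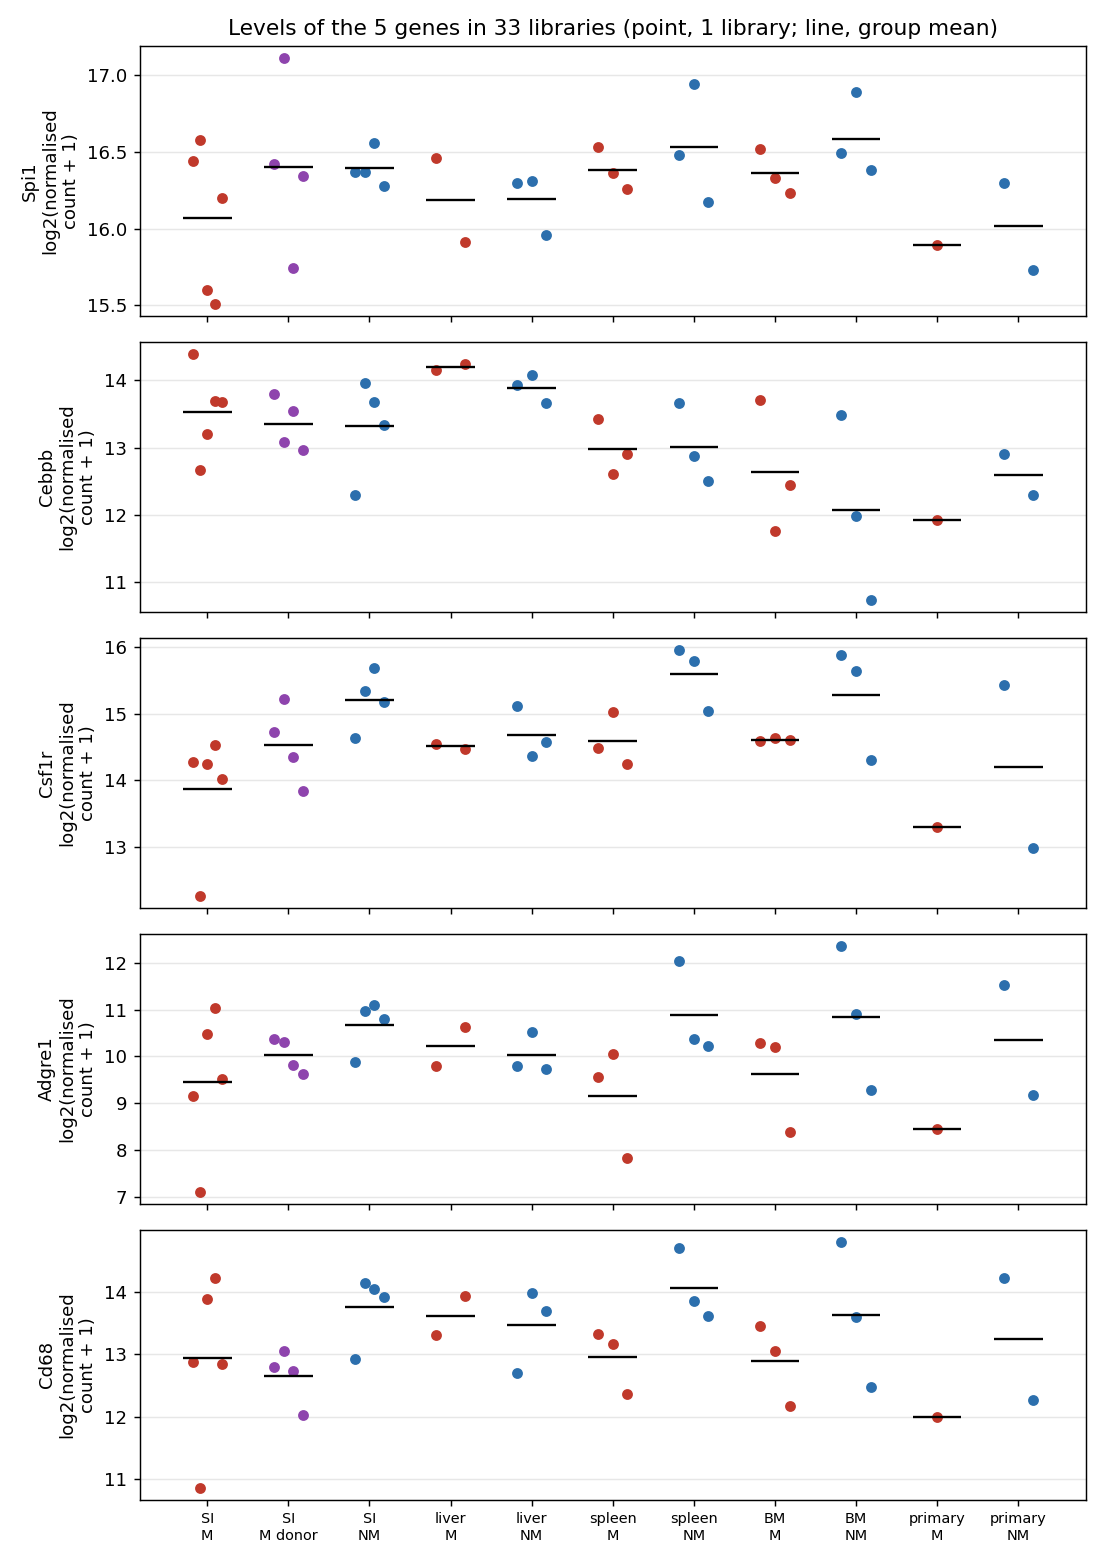
Level of each of the 5 genes in every library, as log2 of the normalised count plus 1 on the y axis, by organ and recipient on the x axis (SI, small intestine; M, manipulated; NM, non-manipulated; M donor, cells of manipulated donors). Points are libraries and short bars are means of groups. Spi1 stayed between 15.51 and 17.11, whereas Adgre1 covered 7.11 to 12.36.

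Ordered by mean level, Csf1r was highest in non-manipulated spleen (15.60 ± 0.49, SD, n = 3) and lowest in the single library of primary monocytes of a manipulated donor (13.29). Among groups with more than 1 library, manipulated small intestine was lowest (13.87 ± 0.91, n = 5). Adgre1 and Cd68 were likewise highest in non-manipulated spleen, at 10.88 ± 1.01 for Adgre1 and 14.06 ± 0.57 for Cd68, and lowest in the primary library of the manipulated donor, at 8.44 and 12. Cebpb followed another order and was highest in liver, at 14.20 ± 0.06 (n = 2) in manipulated and 13.89 ± 0.21 (n = 3) in non-manipulated recipients. Its lowest values were 11.93 in the primary library of the manipulated donor and a mean of 12.07 ± 1.37 in non-manipulated BM. Spi1 means ran between 15.89 in that primary library and 16.59 ± 0.27 in non-manipulated BM. Of the 45 pairs of groups that stood next to each other in these orders (single library left out), none was told apart (lowest adjusted p 0.593, limma, with the lowest unadjusted p at 0.33). The largest step was 0.53, so the orders describe these libraries only.

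The effect of an inflamed small intestine was addressed first. Csf1r was lower in donor monocytes of manipulated small intestine than in those of non-manipulated small intestine. In manipulated recipients its normalised counts were 19815.4, 4919.1, 19500.7, 23605.9 and 16493.7, against 25478, 41671.8, 52810.6 and 37044.3 in non-manipulated recipients. All 5 manipulated libraries lay below all 4 non-manipulated ones. The 2.54-fold difference (log2 difference -1.35 ± 0.47, SE, 95% interval -2.31 to -0.38) had an adjusted p of 0.0286 in limma. Among all 57 genes, 33.3% were called in this comparison and 17.5% were, like Csf1r, lower in every manipulated library than in every non-manipulated one, so 1 called member of 5 is no higher a share than that of the panel. Manipulated library 2, at 12.26 on the log2 scale, was the lowest, while the other 4 lay between 14.01 and 14.53. Without it the difference was -0.95 (adjusted p = 0.101), and without non-manipulated library 2, 3 or 4 it was -1.30, -1.19 or -1.36 (adjusted p = 0.0667, 0.0909 and 0.0553).

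The other 4 genes were not called there. Adgre1 had levels of 9.16, 7.11, 10.48, 11.04 and 9.51 in manipulated small intestine, against 9.87, 10.97, 11.09 and 10.79 in non-manipulated small intestine. Manipulated libraries 3 and 4 lay within the range of the non-manipulated ones, and the groups overlapped (-1.22 ± 0.71, adjusted p = 0.188). Cd68 groups overlapped as well, with 12.88, 10.87, 13.88, 14.22 and 12.84 in manipulated against 12.93, 14.15, 14.04 and 13.92 in non-manipulated small intestine (-0.82 ± 0.57, adjusted p = 0.269), and manipulated library 4 was the highest of all. Without manipulated libraries 3 and 4, which also had the lowest positive control signals of the group (267.2 and 246.53), Csf1r, Adgre1 and Cd68 were all called, with differences of -1.70, -2.08 and -1.56 (adjusted p = 0.0163, 0.0275 and 0.0361). These libraries held the highest Adgre1 and Cd68 levels of their group, so larger differences without them follow from the choice and are no separate support.

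Spi1 and Cebpb differed less. Spi1 had levels of 16.44, 16.58, 15.60, 15.51 and 16.20 in manipulated and of 16.37, 16.37, 16.56 and 16.28 in non-manipulated small intestine (-0.33 ± 0.29, 95% interval -0.92 to 0.26, adjusted p = 0.363). The same 2 manipulated libraries, 3 and 4, were lowest. Cebpb was at 14.39, 12.67, 13.21, 13.69 and 13.68 in manipulated and at 12.30, 13.96, 13.68 and 13.33 in non-manipulated small intestine. Its libraries overlapped over most of their range (0.21 ± 0.47, 95% interval -0.76 to 1.18, adjusted p = 0.71).

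Scaling bears on the Csf1r value. Relative to the median of all 57 genes, Csf1r was lower by a log2 difference of -1.33, a value that no scaling per library can change. The median gene itself moved between -0.23 (total count) and 0.66 (positive controls multiplied in), and Csf1r was not called with positive controls (-0.67, adjusted p = 0.315, limma) or with the deposited series matrix values (-0.81, adjusted p = 0.265, limma). The positive control setting divided by these signals on top of the house-keeping factor. House-keeping counts come from the same lane, so a lane effect shared by both would be divided out again. Whether there was such a shared effect was not tested. Of the 19 genes called in the panel, 11 were higher, against 17 of 19 with positive controls, 14 of 16 with series matrix values, 10 of 21 with total count and 11 of 23 without Actb. House-keeping genes also moved with manipulation, as log2 of Rpl19 over Actb lay between -5.24 and -4.77 in manipulated and between -6.31 and -5.60 in non-manipulated small intestine. Positive control signals were 247 to 555 in manipulated and 527 to 729 in non-manipulated libraries. Their part in the result was not tested. The deposited table had multiplied 18 libraries by a constant, and Csf1r was lower among libraries without it (-1.72, 2 against 2) and among libraries with it (-1.17, 3 against 2).

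**Figure D2:**
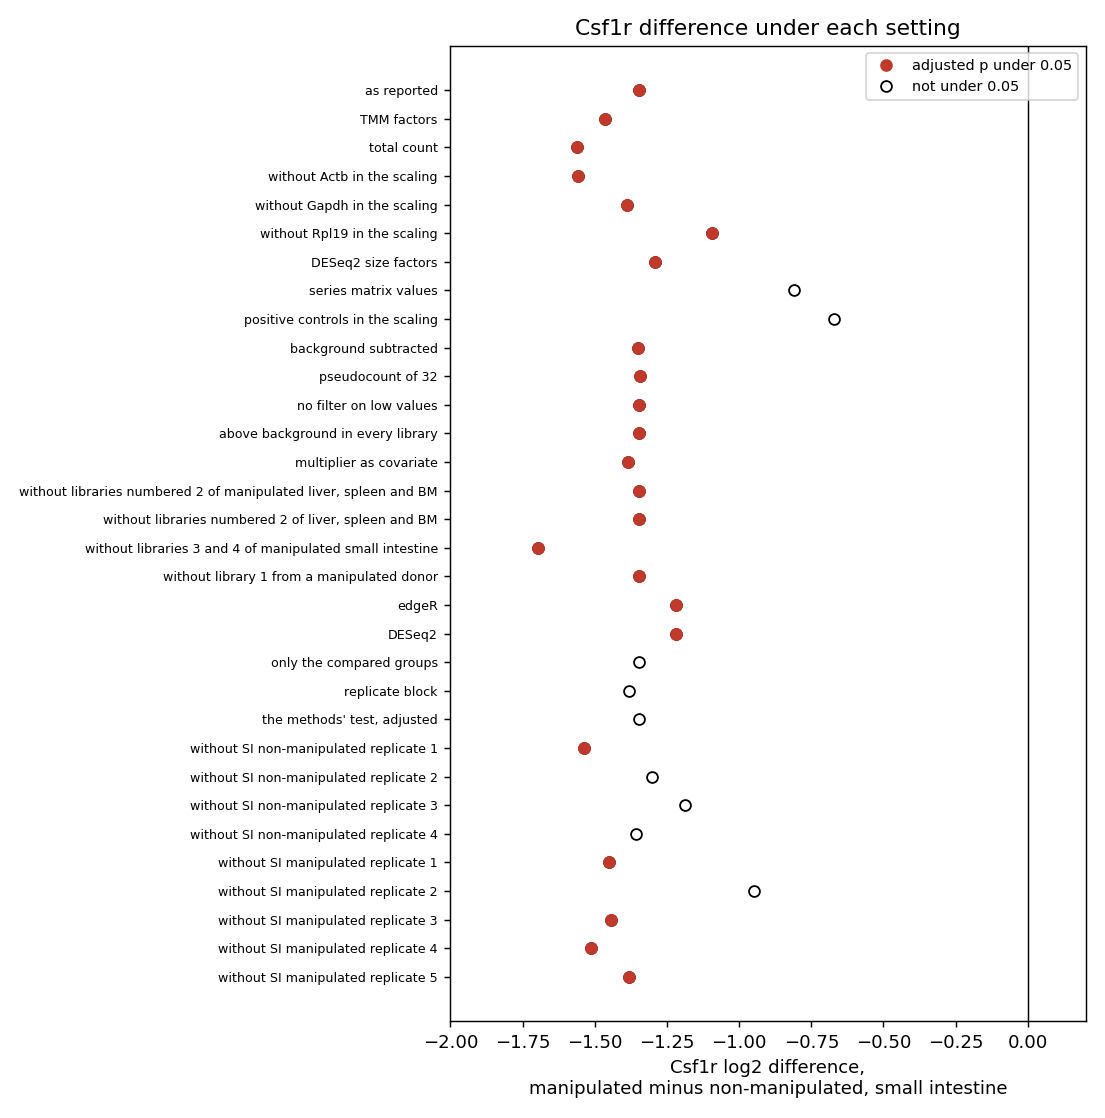
Log2 difference of Csf1r between manipulated and non-manipulated small intestine (x axis) under each processing setting (y axis). Filled points had an adjusted p under 0.05. All differences are below 0, between -1.70 without manipulated libraries 3 and 4 and -0.67 with positive controls in the scaling on top of the house-keeping genes.

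In the same comparison, genes known as targets of PU.1 or C/EBP-beta in macrophages and other maturation markers were read beside the 5 genes. Of 11 measured targets, 4 rose and none fell (median 0.91, against -0.01 over all genes). Counted in either direction, this share was near the 33.3% of the panel that was called. By direction, 11 of the 57 panel genes rose and 8 fell. Arg1, the gene of arginase 1, an enzyme that breaks down arginine, was 86.8-fold higher (6.44 ± 1.11, adjusted p = 9.4e-05). Il6, a pyrogenic cytokine, was 24.8-fold higher, and Tnf and Il10, a pro-inflammatory and a regulatory cytokine, were 3.78-fold and 3.67-fold higher. Of 7 other maturation markers, 2 fell and none rose (median -3.02), namely the fractalkine receptor gene Cx3cr1 (14.5-fold lower) and Itgax, which encodes CD11c (11-fold lower). Counted in either direction, this share too was no higher than that of the panel, where 8 of 57 genes fell. Shares by direction were not tested. Of the 6 monocyte markers, Ccr2, which encodes the CCL2 receptor, fell 4.73-fold and 5 were not called.

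The same comparison in 3 other organs gave no call for the 5 genes. In spleen, where 0% of the panel was called by limma (6 of 57 genes had an unadjusted p under 0.05, with 2 calls in DESeq2 and 0 in edgeR), Adgre1 was at 9.57, 10.05 and 7.82 in manipulated recipients, against 12.04, 10.37 and 10.23 in non-manipulated ones. Cd68 was at 13.33, 13.17 and 12.37 in manipulated and at 14.71, 13.86 and 13.62 in non-manipulated spleen. Csf1r was at 14.49, 15.02 and 14.25 in manipulated and at 15.96, 15.79 and 15.04 in non-manipulated spleen. For these 3 genes no library of manipulated spleen reached the lowest non-manipulated one, which was so for 17.5% of the panel. The differences were -1.73 ± 0.86 for Adgre1, -1.11 ± 0.69 for Cd68 and -1.01 ± 0.57 for Csf1r (adjusted p = 0.406 each), and with the mouse number as a block the adjusted p was 0.195 each. Within same-numbered pairs Adgre1 differed by -2.47, -0.32 and -2.41, and the share of the panel that was lower in every pair was not counted. Spi1 (-0.15 ± 0.35) and Cebpb (-0.03 ± 0.58) differed by less than their errors.

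In BM 1.75% of the panel was called, a single gene that is not among the 5 (Itgax), and 0 genes with the mouse number as a block. Adgre1 was at 10.28, 10.20 and 8.38 in manipulated and at 12.36, 10.91 and 9.28 in non-manipulated BM, with overlapping libraries (-1.23 ± 0.86, adjusted p = 0.531, and 0.228 with the block). Within same-numbered pairs Adgre1 differed by -2.09, -0.71 and -0.90, Cd68 by -1.35, -0.54 and -0.30, and Csf1r by -1.31, -1.01 and 0.29. The labels do not tie these mice to each other, and the share of the panel that was lower in every pair was not counted. Csf1r was at 14.59, 14.64 and 14.60 in manipulated BM, the tightest group of all for this gene, against 15.89, 15.65 and 14.31 in non-manipulated BM (-0.68 ± 0.57, adjusted p = 0.595). Cd68 (-0.73 ± 0.69), Cebpb (0.57 ± 0.58) and Spi1 (-0.23 ± 0.35) were not called either. In liver 0% of the panel was called (6 unadjusted, 2 calls in DESeq2 and 0 in edgeR), and the 5 differences lay between -0.17 ± 0.64 (Csf1r) and 0.31 ± 0.64 (Cebpb), all within their errors. Cebpb was at 14.16 and 14.25 in manipulated liver, against 13.93, 14.08 and 13.67 in non-manipulated liver. Whether the change in small intestine differed from the mean change in the other organs was tested as an interaction, which called 14% of the panel and none of the 5 genes (Csf1r -0.73 ± 0.58, adjusted p = 0.704).

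**Figure D3:**
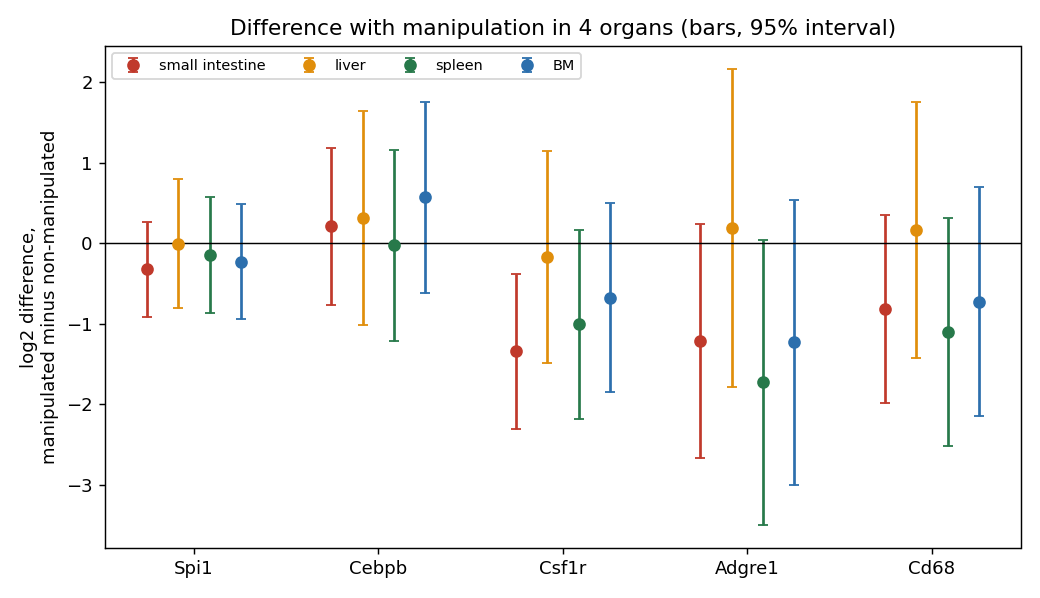
Log2 difference of each of the 5 genes between manipulated and non-manipulated recipients (y axis) in small intestine, liver, spleen and BM. Points are limma estimates and bars their 95% intervals. The Csf1r interval of small intestine, -2.31 to -0.38, lies below 0.

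Among the other maturation markers, the median difference with manipulation was -2.15 in liver (0.06 over all genes), -2.87 in spleen (-0.28 over all genes) and -3.18 in BM (-0.37 over all genes). Of the 7 markers, 1 was called in BM (Itgax, 14.2-fold lower, adjusted p = 0.0413) and 0 in liver and spleen. Of the 11 targets of PU.1 or C/EBP-beta, 0 were called in these 3 organs. None of the 7 other myeloid transcription factors measured was called there.

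Whether the state of the donor mattered was asked with the monocytes of manipulated donors in non-manipulated small intestine. This comparison and that of manipulated with non-manipulated recipients share the non-manipulated libraries. By limma 0% of the panel was called (5 unadjusted, with 3 calls in DESeq2 and 1 in edgeR). Cd68 was at 12.80, 13.06, 12.74 and 12.03 in cells of manipulated donors, against 12.93, 14.15, 14.04 and 13.92 in cells of non-manipulated donors (-1.10 ± 0.60, adjusted p = 0.592). The groups overlapped through the lowest library of non-manipulated donors. Csf1r was at 14.73, 15.22, 14.35 and 13.83 in cells of manipulated donors, and their mean lay between the means of the other 2 groups of small intestine (-0.68 ± 0.50, adjusted p = 0.714). Adgre1 differed by -0.65 ± 0.74, Cebpb by 0.03 ± 0.50 and Spi1 by 0.01 ± 0.30.

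Manipulated small intestine set against the cells of manipulated donors called 8.77% of the panel and none of the 5 genes. Csf1r differed by -0.67 ± 0.47 (adjusted p = 0.414), Adgre1 by -0.57 ± 0.71 and Spi1 by -0.33 ± 0.29. Cd68 differed by 0.28 ± 0.57 and Cebpb by 0.18 ± 0.47. The signs of the macrophage genes depended on the lane constant. Among libraries without it (2 against 3), Csf1r, Adgre1 and Cd68 differed by -1.50, -2.03 and -0.99. Among libraries with it (3 against 1) they differed by 0.44, 0.73 and 1.62. Of the 11 PU.1 or C/EBP-beta targets, Arg1 (61.1-fold) and Il6 (13.3-fold) were higher in manipulated small intestine.

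The effect of the tissue of residence was then compared between organs. The 1 call among the 5 genes was Cebpb, which was higher in liver than in BM of non-manipulated recipients. Its levels were 13.93, 14.08 and 13.67 in liver, against 13.48, 11.99 and 10.74 in BM. All liver libraries lay above all BM libraries, though BM library 1 stood close to them. The difference was 3.53-fold (1.82 ± 0.58, 95% interval 0.63 to 3.00, adjusted p = 0.0332, limma), in a comparison that called 15.8% of the panel and in which 22.8% were higher in every liver library than in every BM library. Of the 9 panel genes called, 8 were higher in liver, against 9 of 14 with DESeq2 size factors and 7 of 7 with positive controls, with series matrix values or without Actb. The Cebpb difference was 3.26 among libraries without the constant (2 against 1) and 0.93 among those with it (1 against 2). Without BM library 3 it was 1.15 (adjusted p = 0.209), without BM library 2 it was 1.78 (0.0703), and without liver library 1 or 2 it was 1.80 and 1.72 (0.0789 and 0.104). With the mouse number as a block it was 1.82 and not called (adjusted p = 0.136, limma). In manipulated recipients Cebpb was at 14.16 and 14.25 in liver, against 13.71, 11.76 and 12.45 in BM, and was not called (1.56 ± 0.64, adjusted p = 0.148, limma). Liver and small intestine went through collagenase digestion, unlike spleen and BM, per the methods of the study. The part of this step in any comparison of liver or small intestine with spleen, BM or primary monocytes was not tested.

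Spi1 was at 16.30, 16.31 and 15.96 in non-manipulated liver, against 16.49, 16.89 and 16.38 in BM. The difference was not called (-0.40 ± 0.35, adjusted p = 0.543, limma). Beside Cebpb, 4 of the 11 targets of PU.1 or C/EBP-beta were higher in liver than in BM and none was lower. These were Il1b, which encodes interleukin-1 beta (27.5-fold), Arg1 (18.1-fold), the LPS co-receptor gene Cd14 (9.27-fold) and Il10 (5.08-fold). Ccr7, the measured marker of dendritic cells, was 6.42-fold higher in liver (adjusted p = 0.012), and of the 7 other transcription factors 0 were called.

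The remaining comparisons between organs called none of the 5 genes. In non-manipulated recipients they called 0% of the panel for small intestine against liver (2 unadjusted, 2 in DESeq2 and 1 in edgeR), 7.02% for small intestine against spleen and 12.3% for small intestine against BM. Liver against spleen called 7.02% and spleen against BM 0% (1 unadjusted, 1 in DESeq2, 0 in edgeR). In manipulated recipients the shares were 8.77% for small intestine against liver, 31.6% against spleen and 35.1% against BM, then 5.26% for liver against spleen, 7.02% for liver against BM and 0% for spleen against BM (2 unadjusted, 1 in DESeq2, 0 in edgeR). F tests across the 4 organs called 8.77% of the panel in non-manipulated and 28.1% in manipulated recipients, again with none of the 5. Cebpb was closest in the non-manipulated F test (adjusted p = 0.14), and in small intestine against BM it differed by 1.25 ± 0.54 in non-manipulated recipients (adjusted p = 0.138). In manipulated small intestine set against spleen and BM, 7 of 11 targets of PU.1 or C/EBP-beta were higher in each comparison, while Spi1 and Cebpb were not called. Spi1 (-0.32 against spleen and -0.29 against BM) was called in 3 alternatives against spleen and in 2 against BM.

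Recovered cells were set against primary monocytes of non-manipulated donors, which gave only 2 libraries. The methods of the study describe magnetic enrichment of BM monocytes and do not say whether the primary libraries were also sorted. All these comparisons share the 2 primary libraries. They called 8.77% of the panel for non-manipulated small intestine, 12.3% for liver, 1.75% for spleen and 1.75% for BM, and 35.1% for manipulated small intestine, with none of the 5 genes. Csf1r was at 15.43 and 12.98 in the primary libraries, which lay further apart than the means of any pair of groups of recovered cells. Its differences from primary monocytes were 1.39 ± 0.64 in spleen (adjusted p = 0.232), 1.08 ± 0.64 in BM and 1.01 ± 0.61 in small intestine. With primary library 1 left out, the 3 differences were 2.62, 2.31 and 2.23 and all were called (adjusted p = 0.0173, 0.0404 and 0.0336), and with library 2 left out they were 0.17, -0.14 and -0.22. The lone primary library was then assumed to vary like the other groups. Cebpb was at 12.91 and 12.29 in the primary libraries, and its difference in non-manipulated liver was not called (1.29 ± 0.64, adjusted p = 0.162, limma). Itgax, by contrast, was called higher in all 4 organs, and no fold is given because only 1 of the 2 primary libraries was above background.

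Scaling cancels in the ratio of 2 genes of the same library, so unequal changes of the 5 genes were described through their 10 ratios, which were chosen after the values were seen and were not tested. In manipulated small intestine, log2 of Cebpb over Csf1r was 0.12, 0.41, -1.04, -0.84 and -0.33, against -2.33, -1.38, -2.01 and -1.84 in non-manipulated small intestine. The groups did not overlap, and their means were -0.34 ± 0.61 and -1.89 ± 0.40 (SD, n = 5 and 4). In cells of manipulated donors the ratio was -0.93, -2.14, -0.79 and -0.86, and it overlapped with both other groups. The ratio of Cd68 to Adgre1 was 3.72, 3.76, 3.40, 3.18 and 3.33 in manipulated and 3.06, 3.18, 2.94 and 3.13 in non-manipulated small intestine. The groups lay side by side, with the lowest manipulated library just above the highest non-manipulated one. This ratio was lower in cells of manipulated donors, at 2.42, 2.75, 2.91 and 2.41, than in every library of the other 2 groups.

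Of the 10 ratios, 2 did not overlap between manipulated and non-manipulated small intestine, where 40.0% of the 1596 ratios of the panel did not overlap. For donor state the count was 2 of 10 (panel 8.33%), the second being Cebpb over Cd68, with means of 0.70 ± 0.45 in cells of manipulated donors and -0.44 ± 0.21 in cells of non-manipulated donors. For manipulated small intestine against cells of manipulated donors it was also 2 of 10 (panel 13.8%), with Cd68 over Csf1r higher by 0.95. In spleen 4 of 10 ratios stood apart (panel 13%), Cebpb over Adgre1 by 1.70, Cebpb over Cd68 by 1.08, Spi1 over Cd68 by 0.96 and Spi1 over Csf1r by 0.86. In BM 2 of 10 did (panel 12.2%), Cebpb over Adgre1 by 1.80 and Cebpb over Cd68 by 1.29, and in liver 0 of 10 (panel 23.9%). Each of these spleen and BM ratios was higher in manipulated recipients. The ratios share genes and reuse the levels given above, so they are not separate observations.

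**Figure D4:**
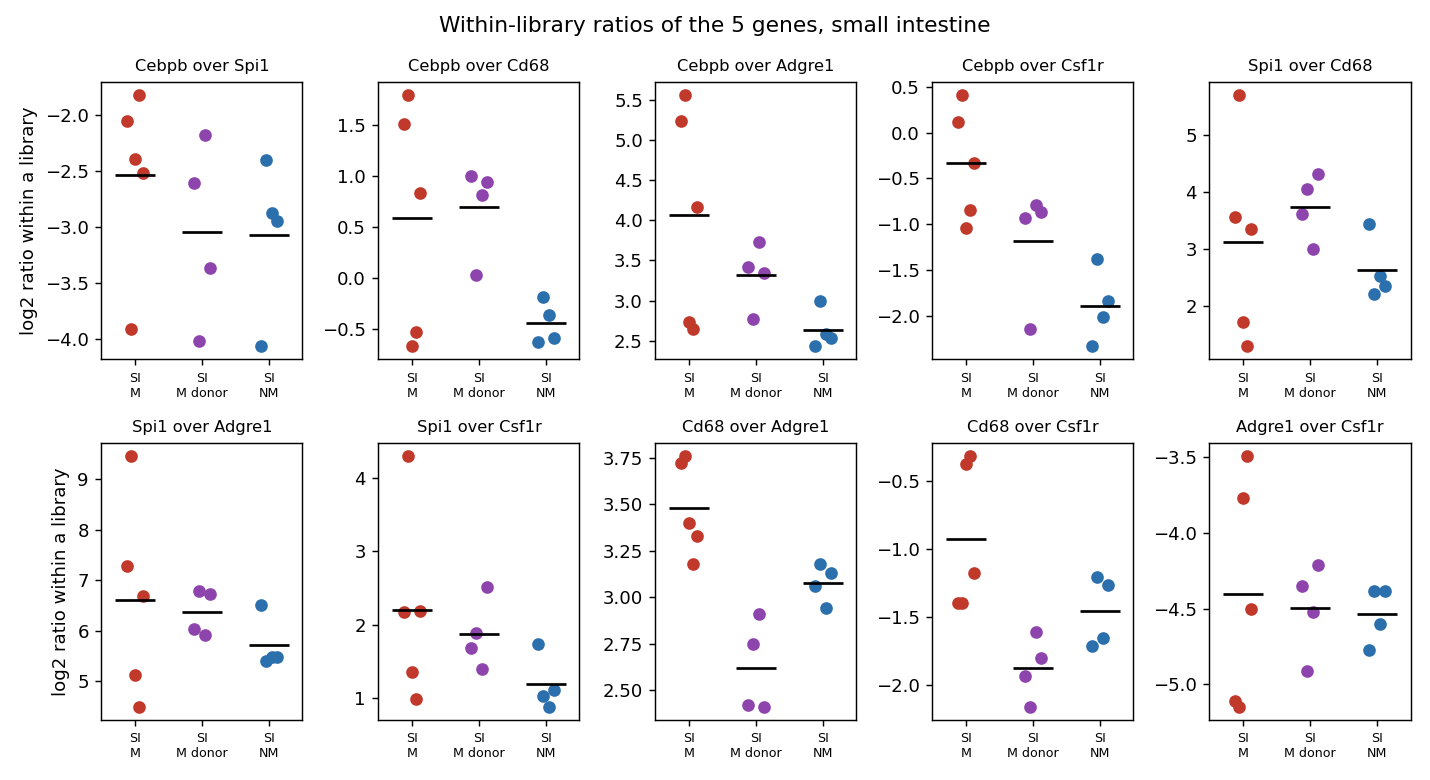
Within-library log2 ratios of pairs of the 5 genes (y axis) in the 3 groups of small intestine (x axis, SI with M, M donor or NM for manipulated recipients, manipulated donors or neither), with a point per library and bars at the means. Cebpb over Csf1r lay above every non-manipulated library of small intestine in all 5 manipulated ones.

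Across all 33 libraries Adgre1 and Cd68 moved most closely together. Their Pearson r was 0.909 (Spearman rho 0.887), it was 0.946 once group means were removed, and it lay between 0.859 and 0.938 over the 9 scalings. Il10ra, which encodes the ligand-binding chain of the interleukin-10 receptor, was the panel gene most like Csf1r (r = 0.825, rho = 0.753), and came second for Adgre1 (r = 0.886, rho = 0.829) and for Cd68 (r = 0.851, rho = 0.803). Csf1r had an r of 0.792 with Adgre1 and of 0.783 with Cd68. Cebpb was most like Relb, an NF-kappaB subunit (r = 0.786, rho = 0.786), Vegfa, an angiogenic growth factor (r = 0.781, rho = 0.794), and Cd44, the hyaluronan receptor (r = 0.740, rho = 0.670). Spi1 was most like Nfkb1 (r = 0.590, rho = 0.560), Nfkb2 (r = 0.503, rho = 0.528) and Tgfb1 (r = 0.497, rho = 0.505). With the macrophage genes Spi1 had an r of 0.427 for Csf1r, 0.103 for Adgre1 and 0.026 for Cd68, and of -0.071 for Cebpb. Cebpb had an r of 0.410 with Cd68, 0.311 with Adgre1 and 0.195 with Csf1r. Once group means were removed these were 0.629, 0.586 and 0.552, while Spi1 and Csf1r had an r of 0.155. The Cebpb values depend on the scaling. With DESeq2 size factors and group means kept, its r was 0.153 with Cd68, 0.023 with Adgre1 and -0.127 with Csf1r, and 0.639 with Relb. Points in these correlations share libraries, cells, pre-amplification and scaling, and they are given as descriptions.

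**Figure D5:**
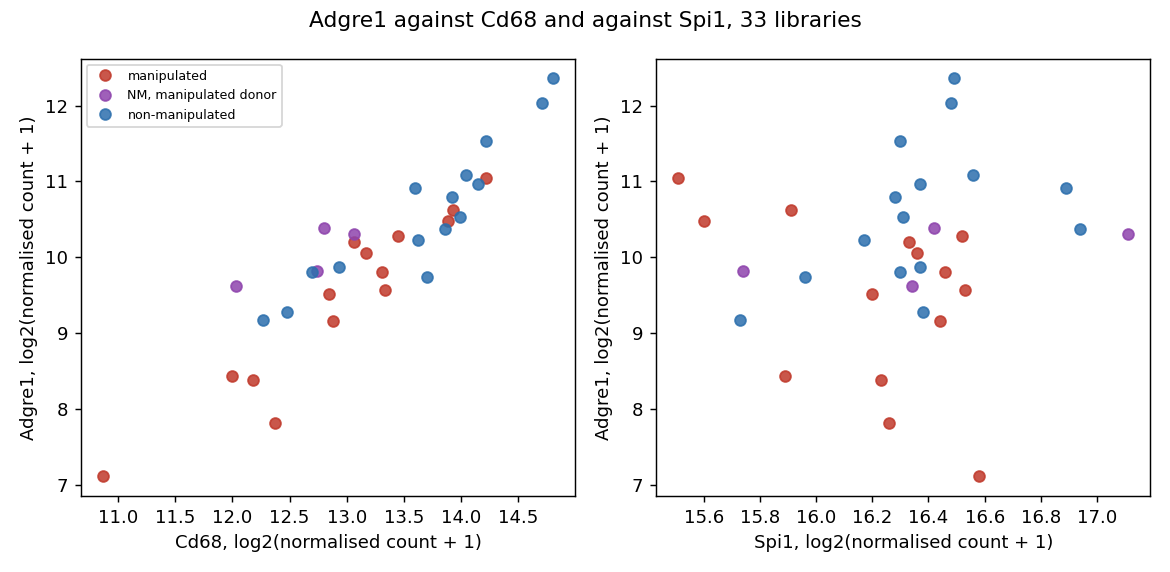
Adgre1 against Cd68 (left) and against Spi1 (right) in 33 libraries, as log2 of the normalised count plus 1, coloured by recipient and donor. Adgre1 and Cd68 lay along a line (r = 0.909), and Adgre1 and Spi1 did not (r = 0.103).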

How the data were processed

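Per the methods of the study, RNA of sorted cells was reverse transcribed, pre-amplified with gene-specific primers and hybridised to barcoded nCounter probes. The deposited table holds raw counts in 15 libraries. In the other 18 the authors' values are a signal, namely counts times a constant per lane of up to 4, and the reason is not given in the sources used here. Once the constant was divided out, 1086 of 1086 values were whole (100%, tolerance 0.002), and these counts were used. The deposited series matrix holds a score, that is, values rescaled per lane by the authors, and served as an alternative.

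Counts were divided by a factor from the geometric mean of Actb, Gapdh and Rpl19 and taken to log2 with a pseudocount of 1. A gene was tested when its count was above background (negative control mean plus 2 SD) in at least 2 libraries, which kept all 57. limma 3.58.1 in R 4.3.3 fitted 1 mean for each of 11 groups over 33 libraries, and 24 contrasts and 2 F tests were adjusted over genes but not over comparisons. All p-values are two-sided. The code was tested on simulated data. The members, the 9 gene lists and the tests were chosen with earlier results of these data known. Named genes are the 5 members, the 3 genes most correlated with each, and up to 4 called genes of a list per comparison.

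Alternatives were other scalings, background subtraction, a pseudocount of 32, other filters, edgeR 4.0.16, DESeq2 1.42.0, the methods' test of group means, the multiplier as a covariate, the mouse number as a block and libraries left out. Labels number the mice without tying them to a day or animal. In spleen and BM, same-numbered libraries of manipulated and non-manipulated recipients deviated together (correlation 0.409 to 0.591 in spleen and 0.532 to 0.612 in BM). So did same-numbered spleen and BM libraries (0.440 to 0.769 in non-manipulated and 0.691 to 0.882 in manipulated recipients) and liver and spleen libraries of non-manipulated recipients (0.166 to 0.712). The mouse number was therefore run as a block, but only as an alternative, and the reported fit paired no libraries. In spleen and BM, libraries 1 and 2 carried the lane constant and library 3 did not, so the number also holds the constant there. Liver and spleen (0.733 and 0.813) and liver and BM (0.595 and 0.712) of manipulated recipients had only 2 such pairs. Without the block, p-values measure the spread between libraries, and libraries of several organs were treated as independent although some deviated together. Python 3.11.15 with numpy 2.4.6, pandas 2.3.3 and matplotlib 3.10.9 was used for descriptions and figures.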

Additional observations from a re-analysis of the deposited data

Results flagged for a closer look

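Csf1r in library 2 of manipulated small intestine stood far below the other libraries of its group, at 12.26 on the log2 scale, against 14.01 to 14.53 in the other 4. Of the 15 sets of 4 or 5 libraries examined for the 5 genes, this was the only one in which the gap to the nearest library passed Dixon's 95% critical value, which chance passes in about 1 of 20 groups. The same library also had the lowest Adgre1 (7.11) and Cd68 (10.87) of all 33 libraries, while its Spi1 (16.58) was the highest of its group. Without it the Csf1r difference between manipulated and non-manipulated small intestine was -0.95 (adjusted p = 0.101, limma).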

How the results depend on the processing

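The direction of the Csf1r difference in small intestine was negative under all alternatives run, and its call was not. It was -1.35 with only the compared groups in the fit (adjusted p = 0.0519), -0.67 with positive controls in the scaling on top of the house-keeping genes (0.315), -1.38 with the replicate block (0.132), -0.81 with series matrix values (0.265) and -1.35 with the methods' test, adjusted (0.0744). In these 5 settings 0 of the 5 genes were called, against 3 without libraries 3 and 4 of manipulated small intestine, the highest of that group for Adgre1 and Cd68. With each library left out in turn the difference ranged from -1.54 to -0.95 and 0 to 1 genes were called. Cebpb in non-manipulated liver against BM was 1.41 in edgeR (adjusted p = 0.0968), 1.82 with only the compared groups (0.176), 1.82 with the replicate block (0.136), 1.82 with the methods' test (0.0858 unadjusted and 0.323 adjusted), 1.66 without Actb in the scaling (0.0981) and 1.68 without libraries numbered 2 of liver, spleen and BM (0.213), with 0 genes called in these 7 settings. Leave-one-out values ran from 1.15 to 2.52, with 0 to 1 genes called. The causes were not tested.

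Other comparisons had 0 of the 5 genes called, with these exceptions. Calls with DESeq2 size factors, TMM factors and total count were 2, 2 and 2 for manipulated small intestine against spleen, and 2, 1 and 2 against BM. Over the alternatives, Csf1r and Spi1 were called in 3 each against spleen, and in 3 and 2 against BM. The F test in manipulated recipients called 2 with DESeq2 size factors and 1 with TMM factors. Manipulated small intestine against primary monocytes called 1 with DESeq2 size factors and 2 with positive controls. The methods' test, unadjusted, called 1 in each of manipulated liver against spleen (Cebpb), liver against primary monocytes (Cebpb), donor state (Cd68) and spleen with manipulation (Csf1r). With 1 library left out, 0 to 1 were called for manipulated liver or small intestine against BM, non-manipulated small intestine against BM, the F test of non-manipulated recipients, and BM, small intestine and spleen against primary monocytes, and 0 in every other comparison. With primary library 1 or 2 left out, the Csf1r difference from primary monocytes was 2.31 or -0.14 in BM and 2.23 or -0.22 in small intestine, with the lone library assumed to vary like the other groups. Of 120 differences of the 5 genes, 101 were under 1.5 SE, and 74 of these changed sign under at least 1 alternative. The replicate block changed no other call among the 5 genes. Same-numbered libraries of manipulated and non-manipulated small intestine did not deviate together (-0.32 to 0.213), nor did those compared for donor state (-0.359 to 0.088).

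Counts over the 57 genes also moved, among alternatives that left out no single library. With manipulation they were 14 to 24 in small intestine (19 as reported), 0 to 2 in liver (0), 0 to 6 in spleen (0) and 0 to 11 in BM (1), and 5 to 9 for the interaction (8). They were 0 to 5 for donor state (0) and 1 to 15 for manipulated small intestine against cells of manipulated donors (5). Against primary monocytes they were 4 to 14 in small intestine (5), 2 to 17 in liver (7), 0 to 7 in spleen (1), 0 to 5 in BM (1) and 8 to 28 in manipulated small intestine (20). Between non-manipulated organs they were 0 to 2 for small intestine against liver (0), 0 to 7 against spleen (4), 4 to 16 against BM (7), 0 to 9 for liver against spleen (4), 4 to 14 against BM (9), 0 to 1 for spleen against BM (0) and 4 to 10 for the F test (5). Between manipulated organs they were 0 to 12, 10 to 23 and 9 to 25 for small intestine against liver, spleen and BM (5, 18 and 20), 0 to 7 and 0 to 6 for liver against spleen and BM (3 and 4), 0 to 1 for spleen against BM (0) and 12 to 20 for the F test (16). Groups of 2 or 3 libraries of 100 cells limit what these comparisons can show.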
